A study of Mus musculus with 12 samples.

Results

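Genes that encode enzymes removing superoxide and peroxides, 10 in all, were followed across RNA-seq libraries of mouse kidney: the superoxide dismutases Sod1, Sod2 and Sod3, catalase (Cat), the peroxiredoxins Prdx2, Prdx3, Prdx5 and Prdx6, and the mitochondrial thioredoxin Txn2 with its reductase Txnrd2. They were chosen by name, and each symbol matched 1 row among the 55487 genes of the count table, so 10 of 10 members had data. In GENCODE M21 (GRCm38, the build named mm10 in the processing notes) they lie at chr16:90220754-90226329 (Sod1), chr17:13006846-13040063 (Sod2), chr5:52363791-52371418 (Sod3), chr2:103453849-103485160 (Cat), chr8:84969587-84974834 (Prdx2), chr19:60864051-60874556 (Prdx3), chr19:6906697-6910106 (Prdx5), chr1:161240112-161251219 (Prdx6), chr15:77915047-77929006 (Txn2) and chr16:18426384-18479073 (Txnrd2). All 10 passed the low-count filter in every comparison, and the lowest count of a member in any library was 191, for Txnrd2.

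The 12 libraries came from kidney cortex of young adult mice on a mixed C57BL/6 background, with 3 libraries in each of 4 groups. Mice whose ALR gene (symbol Gfer) carried loxP sites on both alleles, without Cre and labelled WT, gave the uninjured control group (Ctrl, labelled Sham) and the injured control group (Ctrl+I/R). Mice with the same floxed alleles and a Ggt1-Cre transgene, labelled ALR knockdown, gave the PT-KO and PT-KO+I/R groups. The Ggt1 promoter drives Cre in proximal tubule cells, so the other cells of the cortex keep the gene. Injury was 22 min of ischemia of both kidneys and 24 h of reperfusion (I/R). The study counts mice as n in the legends for most sequenced groups, but the labels do not tie each library to a mouse, so the p-values measure the spread between these libraries.

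Superoxide leaks from the respiratory chain and is converted to hydrogen peroxide by superoxide dismutases, of which SOD1 works mainly in the cytosol, SOD2 in the mitochondrial matrix and SOD3 outside the cell. Hydrogen peroxide is then split by catalase in peroxisomes or reduced by peroxiredoxins, most of which are recharged by thioredoxin and thioredoxin reductase. PRDX3 with thioredoxin 2 and thioredoxin reductase 2 forms the mitochondrial branch. The proximal tubule, which is rich in mitochondria and peroxisomes, is the part of the nephron most exposed to reperfusion injury, and many cytosolic enzymes of this system are known targets of the transcription factor NRF2, which binds the antioxidant response element.

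Promoter stretches, picked after the members' values were seen, are shown for 3 of the 7 members whose mRNA fell after I/R in knockout kidneys (Sod2, Cat and Prdx3) and for the genes among those examined whose windows held the core of the antioxidant response element outside the exon (Sod1, Prdx1 and Txnrd1). They are read 5′ to 3′ in the direction of the gene, in the RefSeq annotation of GRCm38.p6, and capitals mark the motif on either strand, which is the GC box GGGCGG in the first 3 and the element core TGACNNNGC in the others. They lie at chr17:13007672-13007811 (plus strand, Sod2), chr2:103485161-103485300 (minus, Cat), chr19:60874557-60874696 (minus, Prdx3), chr16:90220686-90220734 (plus, Sod1), chr4:116685446-116685494 (plus, Prdx1) and chr10:82859094-82859142 (plus, Txnrd1), each upstream of the start in RefSeq, and the Sod2 stretch lies inside the longer gene span of GENCODE M21 but outside its exons.
Sod2: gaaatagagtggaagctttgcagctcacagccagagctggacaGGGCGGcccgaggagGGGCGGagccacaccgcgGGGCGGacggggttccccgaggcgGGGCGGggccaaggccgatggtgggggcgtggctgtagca
Cat: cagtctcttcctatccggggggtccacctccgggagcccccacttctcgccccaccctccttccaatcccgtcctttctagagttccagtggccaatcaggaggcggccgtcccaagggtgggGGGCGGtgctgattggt
Prdx3: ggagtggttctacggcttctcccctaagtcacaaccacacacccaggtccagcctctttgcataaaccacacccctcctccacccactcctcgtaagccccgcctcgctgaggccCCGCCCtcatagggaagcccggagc
Sod1: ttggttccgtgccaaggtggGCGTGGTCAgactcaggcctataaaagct
Prdx1: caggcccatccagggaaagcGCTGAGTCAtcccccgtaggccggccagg
Txnrd1: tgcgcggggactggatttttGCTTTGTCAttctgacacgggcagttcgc

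The Sod2 stretch held 4 GC boxes, and those of Cat and Prdx3 held 1 each. Promoter windows of 300 bases, from 250 before to 50 after the start, were found for 8 of the 10 members (no window for Sod3 and Prdx6). All 8 held a GC box on either strand, against 35.7% of 32851 windows of all genes and 64.5% of 31 windows of the wider list of redox genes described further on. The element core was found in 1 of the 8, that of Sod1, against 12.4% of all windows and 16.1% of the 31 windows of the wider list. These are matches of letters in short windows and do not show binding.

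Library totals ranged from 12165089 to 23123693 counts, and 20416 to 22210 genes had a count in a library. Levels are given as CPM, the count scaled to library size after TMM normalization over the 12 libraries. Ctrl libraries 1 and 2 held 22402 and 19755 counts of Xist and 0 counts of Y-linked genes, whereas Xist was at 11 counts or fewer in the other 10 libraries. Sex therefore differed within Ctrl and between it and the other groups. Values from a fit with sex as a covariate are given beside the main results that rest on Ctrl. As only Ctrl libraries 1 and 2 were female by these counts, that fit sets the level of Ctrl from library 3 alone. Its values against Ctrl are therefore given as effect sizes only and are no check on 3 against 3 libraries. Gfer, the targeted gene, was at 11.4 to 14.4 CPM in Ctrl and 9.97 to 17.1 CPM in PT-KO, a log2 difference of 0.13 (adjusted p = 0.761, edgeR). In injured kidneys it was at 15.3 to 20 CPM in controls and 21.6 to 22.8 CPM in knockouts, without overlap (log2 difference 0.32, adjusted p = 0.0723), so its mean was not lower in either knockout group, and it rose 1.56-fold after I/R in knockouts (adjusted p = 0.00888). These are whole-gene counts that include exons outside the floxed stretch, so they do not check the deletion, and the groups are the libraries labelled so. The summed level of 10 proximal tubule markers was 18100 to 21000 CPM in the 6 uninjured libraries, 6210 to 12000 CPM in injured controls and 5300 to 6120 CPM in injured knockouts. In bulk tissue, fewer cells of a type and less RNA per cell cannot be told apart. Podocyte markers, of the cortex, were present in every library, and so were 2 inner medulla markers, whose sum was 27.4 to 102 CPM in the uninjured libraries, 72.3 to 81.8 CPM in injured controls and 25.8 to 43.5 CPM in injured knockouts, both being lower in the last group than in injured controls. Whether libraries held unequal shares of medulla was not tested. Ctrl library 3 is placed by its column name, whose number matches none of the control titles.

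Per kilobase of the main transcript, the most abundant members in Ctrl were Prdx5, at 653 ± 123 CPM per kb (SD, n = 3 here and below), Sod1, at 509 ± 76.1, and Cat, at 394 ± 41.1. Prdx3 followed at 147 ± 10.9, Prdx2 at 106 ± 2.15, Sod3 at 90.8 ± 16.7, Prdx6 at 74.3 ± 5.3, Txn2 at 67.0 ± 5.38 and Sod2 at 62.3 ± 3.98. Txnrd2 was lowest, at 8.17 ± 0.593 CPM per kb. The libraries of Prdx5 and Sod1 overlapped, as did those of each neighbouring pair from Prdx2 down to Sod2, whereas Cat, Prdx3 and Txnrd2 stood apart from their neighbours. The rank of Sod1 rests on its short main transcript of 641 bases, because it ranked 5 when the exons of all its transcripts were used. With the exons of all transcripts, Cat ranked 1 in Ctrl, at 394 ± 41.6 CPM per kb, and Prdx5 ranked 2, at 385 ± 72.7. The top rank and the gap around Cat therefore also rest on the length used. In PT-KO+I/R Prdx6 stood at rank 4, with 130 ± 4.6 CPM per kb, above Prdx3 at 92.2 ± 1.41, and Sod3 at rank 8, with 57.4 ± 7.64. This order also rests on the length used, because with the exons of all transcripts Prdx3, at 92.4 CPM per kb, stood at rank 3 above Prdx6, at 64.5 and rank 5, and Sod3 stood at rank 6.

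After I/R in control kidneys, Sod2 was the 1 member of 10 that passed the threshold in the main fit, falling 1.78-fold. The other members had log2 fold changes from -0.54 (Cat) to 0.45 (Prdx6), of which none passed an adjusted p of 0.05, the threshold used throughout (edgeR quasi-likelihood test, Benjamini-Hochberg adjustment over all genes tested). Of all 15567 genes tested, 19.4% passed (11.4% higher, 7.97% lower). The median log2 fold change was -0.21 over the members and -0.01 over all genes. With sex as a covariate, where Ctrl library 3 alone sets the level of Ctrl, these medians were -0.38 and 0. In that fit Sod1 was at -0.56, Prdx3 at -0.45, Sod3 at -0.40 and Prdx5 at -0.36, and Prdx2, Txn2 and Txnrd2 lay between -0.24 and -0.11. At an unadjusted p under 0.05, 3 members would be counted (37.9% of all genes), and 0 by a fold rule of p under 0.01 and a log2 change beyond 1 in either direction (9.15%). The study used the first of these thresholds for this comparison and the second for injured knockout against injured control kidneys. The groups did not overlap for 7 members, against 43.7% of all genes.

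In knockout kidneys I/R was accompanied by lower mRNA of 7 members, Sod1, Sod2, Sod3, Cat, Prdx2, Prdx3 and Txnrd2, and by higher Prdx6, while Prdx5 and Txn2 did not pass. The falls ranged from 1.28-fold for Sod1 to 2.4-fold for Sod2, and Prdx6 rose 1.48-fold. Of all 15155 genes tested, 65.5% passed (32.9% higher, 32.7% lower). The 8 members called, of 10, therefore stand beside a majority of all genes called, and 7 of 10 lower stands beside 32.7%. The median log2 fold change was -0.42 over the members and 0.01 over all genes, and the groups did not overlap for 8 members, against 70.8% of all genes. The count was also 8 at an unadjusted p under 0.05 (68.9% of all genes) and 1, Sod2, by the fold rule (29.1%). The 4 comparisons share groups, so their values are given side by side without a test of likeness.

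**Figure D1:**
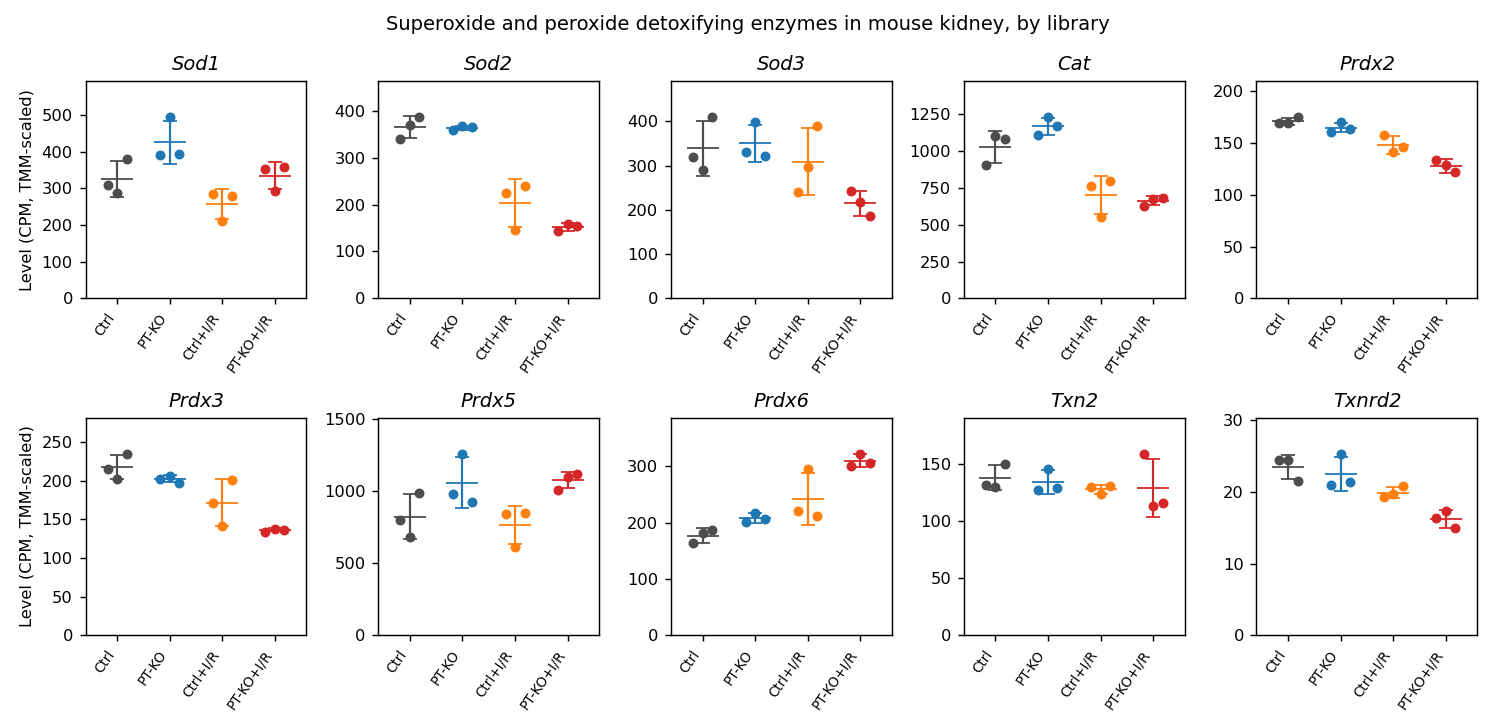
Level of each of the 10 members in CPM after TMM scaling (vertical axes from 0, a scale for each gene) in the 3 libraries of each of the 4 groups; points are libraries, horizontal marks the mean and bars the SD. In Sod2, Cat and Prdx3 the 3 PT-KO+I/R libraries lie well below the uninjured libraries, in Prdx6 they lie above all uninjured libraries, and in Txn2 the groups overlap.

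Sod2, the manganese enzyme of the mitochondrial matrix, showed the largest change among the members. Its level was 340, 370 and 386 CPM in uninjured and 225, 146 and 240 CPM in injured control kidneys, and 358, 367 and 365 CPM in uninjured and 143, 159 and 154 CPM in injured knockout kidneys. All 6 injured libraries were below all 6 uninjured ones, while the 2 injured groups overlapped through Ctrl+I/R library 2. The log2 fold change after I/R was -1.26 ± 0.08 (SE) in knockout kidneys (adjusted p = 9.33e-07) and -0.83 ± 0.20 in control kidneys (adjusted p = 0.0316). With sex as a covariate, where Ctrl library 3 alone sets the level of Ctrl, the log2 fold change in control kidneys was -0.92. The call in control kidneys disappeared in 4 of the 6 fits with a library omitted. These were the fits without Ctrl library 1 (adjusted p = 0.0891), 2 (0.102) or 3 (0.0639), and without Ctrl+I/R library 1 (0.0734). Sod2 shares a stretch of 3110 bases at 98.3% identity with Rps6ka2, whose count was at most 119 in any library, against at least 1667 for Sod2. Shorter stretches at 95% identity or more occur in transcripts with higher counts, of which the highest was Dld, 96.8% identical over 188 bases with up to 8794 counts, and their part in the Sod2 counts was not tested.

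Sod1, the copper and zinc enzyme of the cytosol, was at 309, 288 and 381 CPM in uninjured and 285, 212 and 279 CPM in injured control kidneys, and 392, 494 and 393 CPM in uninjured and 352, 292 and 359 CPM in injured knockout kidneys. It was highest in PT-KO and lowest in Ctrl+I/R, and the PT-KO libraries lay above those of Ctrl. It fell after I/R in knockout kidneys (log2 fold change -0.36 ± 0.12, adjusted p = 0.0246), a call that was lost without PT-KO library 2 (-0.24, adjusted p = 0.0941) or PT-KO+I/R library 3 (-0.26, adjusted p = 0.102), and in 1 fit to all 12 libraries (adjusted p = 0.0671). In control kidneys its log2 fold change was -0.33 ± 0.17 (adjusted p = 0.208). The log2 ratio of Sod1 to Sod2 within a library was 0.91 higher in injured than in uninjured knockout kidneys, with no overlap of the groups. A processed pseudogene, Gm8566, is 97.8% identical over 465 bases, with at most 156 counts in a library against at least 4054 for Sod1.

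Sod3, the secreted dismutase that binds to matrix around vessels and tubules, was at 320, 289 and 409 CPM in uninjured and 240, 297 and 390 CPM in injured control kidneys, and 330, 398 and 322 CPM in uninjured and 242, 217 and 185 CPM in injured knockout kidneys. The injured controls overlapped the uninjured ones, whereas every PT-KO+I/R library was below every uninjured library. Its log2 fold change after I/R was -0.71 ± 0.12 in knockout kidneys (adjusted p = 0.000489) and -0.13 ± 0.21 in control kidneys (adjusted p = 0.686). Of 4 smooth muscle markers, Acta2 (log2 fold change 1.16, adjusted p = 0.00247) and Tagln (2.13, adjusted p = 4.49e-05) rose after I/R in knockout kidneys, Myh11 fell (-1.47, adjusted p = 8.43e-05) and Cnn1 was at -0.90 (adjusted p = 0.209). Their sum was 73.8 to 138 CPM in the uninjured and 146 to 263 CPM in the injured libraries, and their part in the result was not tested.

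Catalase (Cat), the peroxisomal enzyme that splits hydrogen peroxide, was at 905, 1100 and 1080 CPM in uninjured and 761, 556 and 795 CPM in injured control kidneys, and 1110, 1230 and 1170 CPM in uninjured and 628, 677 and 685 CPM in injured knockout kidneys. Injured and uninjured libraries did not overlap, and the 2 injured groups did. Cat fell 1.77-fold after I/R in knockout kidneys (log2 fold change -0.83 ± 0.09, adjusted p = 2.71e-05). In control kidneys the log2 fold change was -0.54 ± 0.19 with an adjusted p of 0.0814 in edgeR and -0.54 with 0.0222 in DESeq2. It was -0.62 with sex as a covariate, against a single Ctrl library. Of 12 reference genes for peroxisome assembly and fatty acid oxidation, 5 were higher and 5 lower after I/R in knockout kidneys, with a median log2 fold change of -0.07, beside 32.9% and 32.7% of all genes. In control kidneys 0 of the 12 were higher and 3 lower, with a median of -0.26, beside 11.4% and 7.97% of all genes.

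Peroxiredoxin 3 (Prdx3), the peroxidase of the mitochondrial matrix, was at 216, 203 and 235 CPM in uninjured and 172, 142 and 201 CPM in injured control kidneys, and 203, 207 and 197 CPM in uninjured and 134, 138 and 137 CPM in injured knockout kidneys. PT-KO+I/R was the lowest group, with no library reaching any other group. Prdx3 fell 1.49-fold after I/R in knockout kidneys (log2 fold change -0.58 ± 0.08, adjusted p = 0.000101), and in control kidneys its log2 fold change was -0.34 ± 0.15 (adjusted p = 0.153). Of 12 reference genes of mitochondria, outside this system, 8 were lower and 1 higher after I/R in knockout kidneys, with a median log2 fold change of -0.43, and 2 were lower and 1 higher in control kidneys, with a median of -0.40. The shares of all genes were 32.7% lower and 32.9% higher in knockout kidneys, and 7.97% and 11.4% in control kidneys.

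Peroxiredoxin 6 (Prdx6), a cytosolic enzyme that reduces phospholipid hydroperoxides with glutathione, went the opposite way. Its level was 163, 182 and 187 CPM in uninjured and 220, 296 and 211 CPM in injured control kidneys, and 201, 217 and 207 CPM in uninjured and 301, 322 and 306 CPM in injured knockout kidneys. The Ctrl libraries were the 3 lowest and the PT-KO+I/R libraries the 3 highest of the 12. Prdx6 rose after I/R in knockout kidneys (log2 fold change 0.56 ± 0.08, adjusted p = 0.000176). In control kidneys the log2 fold change was 0.45 ± 0.15 with an adjusted p of 0.0735 in edgeR and 0.46 with 0.0399 in DESeq2. It was 0.38 with sex as a covariate, against a single Ctrl library.

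Peroxiredoxin 5 (Prdx5), found in mitochondria, peroxisomes and the cytosol, was at 803, 680 and 989 CPM in uninjured and 841, 615 and 849 CPM in injured control kidneys, and 984, 1260 and 925 CPM in uninjured and 1010, 1100 and 1120 CPM in injured knockout kidneys. The means were 1060 and 1080 CPM in the knockout groups and 824 and 768 CPM in the control groups, and I/R itself went with a log2 fold change of 0.02 ± 0.12 in knockout and -0.09 ± 0.21 in control kidneys, neither of which passed (adjusted p = 0.875 and 0.77). Prdx5 shares 409 exon bases with Trmt112 on the other strand, whose count was at most 0.0235 of that of Prdx5. Peroxiredoxin 2 (Prdx2), a cytosolic enzyme that is abundant in red cells, was at 169, 169 and 175 CPM in uninjured and 158, 141 and 146 CPM in injured control kidneys, and at 161, 170 and 164 CPM in uninjured and 134, 129 and 122 CPM in injured knockout kidneys. It fell after I/R in knockout kidneys by 0.37 on the log2 scale (SE 0.08, adjusted p = 0.00225), and its log2 fold change in control kidneys was -0.20 ± 0.10 (adjusted p = 0.206). Of 6 red cell markers tested, 2 were also lower after I/R in knockout kidneys (32.7% of all genes), Hbb-bs, at 33.6, 72.8 and 50.1 CPM in PT-KO and 30.3, 27.6 and 32.4 CPM in PT-KO+I/R, and Slc4a1, which is also found in intercalated cells of the collecting duct. The part of these markers in the result was not tested. Prdx2 shares 173 exon bases with Junb and 177 with Rnaseh2a on the other strand, and the count of Junb was at most 0.0602 of that of Prdx2 in uninjured libraries and up to 0.616 of it in PT-KO+I/R. Whether reads were counted by strand is not given in the sources used here.

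The mitochondrial thioredoxin system has 2 members here. Txn2, the mitochondrial thioredoxin, was at 132, 130 and 150 CPM in uninjured and 130, 124 and 131 CPM in injured control kidneys, and 127, 146 and 129 CPM in uninjured and 159, 113 and 116 CPM in injured knockout kidneys, and all 4 groups overlapped. Its log2 fold change after I/R was -0.06 ± 0.13 in knockout kidneys (95% interval -0.35 to 0.23, adjusted p = 0.695) and -0.10 ± 0.11 in control kidneys (95% interval -0.34 to 0.15, adjusted p = 0.544). Txnrd2, the reductase that recharges it, was at 24.5, 24.4 and 21.5 CPM in uninjured and 19.3, 19.7 and 20.8 CPM in injured control kidneys, and 20.9, 25.3 and 21.4 CPM in uninjured and 16.3, 17.4 and 15 CPM in injured knockout kidneys. It was lowest in PT-KO+I/R, with no overlap with any other group, and it fell after I/R in knockout kidneys (log2 fold change -0.48 ± 0.12, adjusted p = 0.00564), with a log2 fold change of -0.23 ± 0.10 in control kidneys (adjusted p = 0.141). Because counting by strand is not stated, the count of Txnrd2 and its fall are uncertain.

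**Figure D2:**
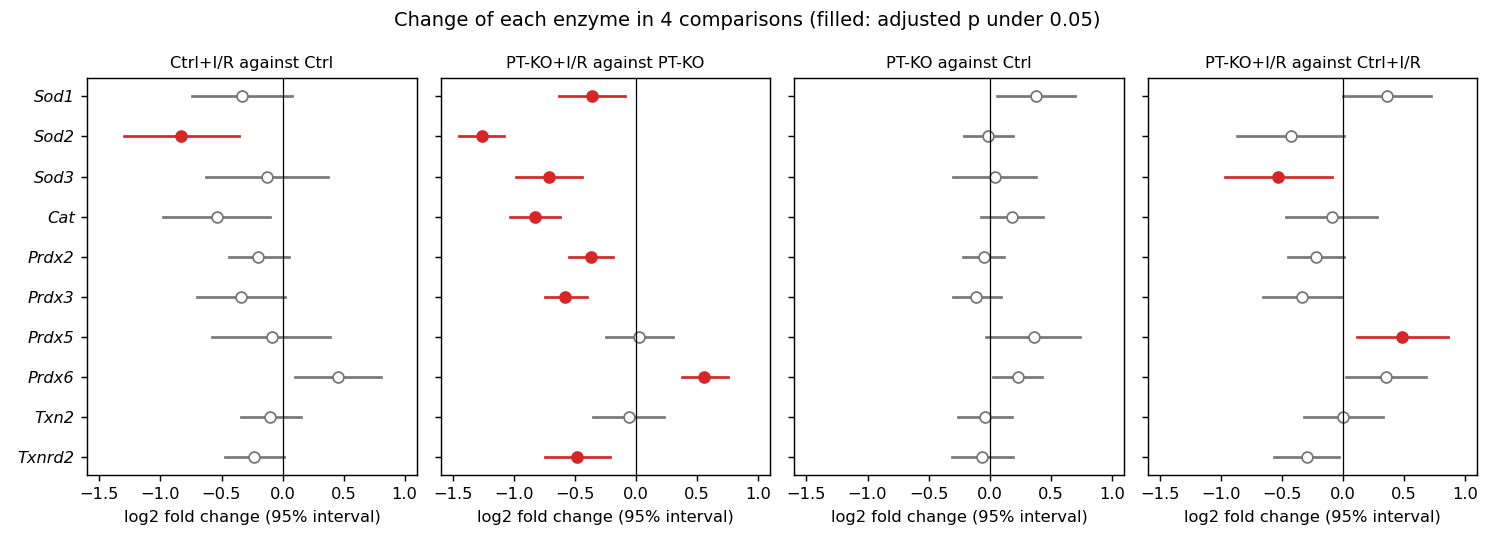
Log2 fold change of each member (points) with its 95% interval (lines) in the 4 comparisons, on a common horizontal scale; filled red points passed an adjusted p of 0.05 and open points did not. Passing members number 1 after I/R in controls, 8 after I/R in knockouts, 0 between uninjured genotypes and 2 between injured genotypes.

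Without injury, no member differed between the genotypes past the threshold. Of the 10 members 0 were called between PT-KO and Ctrl by edgeR and 0 by DESeq2, beside 0% of all 15291 genes by edgeR and 2.93% by DESeq2. At an unadjusted p under 0.05, 2 members would be counted, both higher, Sod1 with a log2 difference of 0.38 ± 0.14 (adjusted p = 0.25) and Prdx6 with 0.23 ± 0.09 (adjusted p = 0.259), beside 16.8% of all genes, and 0 by the fold rule, beside 1.42%. The other 8 lay between -0.11 (Prdx3) and 0.36 (Prdx5). The groups did not overlap for 3 members, against 21% of all genes. Without Ctrl library 3, the only one of that group with Y-linked counts, Sod1 (0.51, adjusted p = 0.0224) and Prdx5 (0.51, adjusted p = 0.0469) passed, and 12.4% of all genes did. With sex as a covariate, where Ctrl library 3 alone sets the level of Ctrl, Sod1 was at 0.16 and Prdx5 at 0.10.

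Between injured knockout and injured control kidneys, Prdx5 was 1.4-fold higher and Sod3 1.44-fold lower in PT-KO+I/R, and the other 8 members did not pass, beside 46.9% of all 15281 genes tested (22.5% higher, 24.4% lower). The log2 difference of Prdx5 was 0.48 ± 0.16 (adjusted p = 0.0413), with no overlap of the groups. For Sod3 it was -0.53 ± 0.19 (adjusted p = 0.0491), although PT-KO+I/R library 2 lay above Ctrl+I/R library 1. The members were spread on both sides of 0, with Sod1 at 0.36 ± 0.16 and Prdx6 at 0.35 ± 0.14 at one end and Sod2 at -0.43 ± 0.19 and Prdx3 at -0.34 ± 0.14 near the other (adjusted p from 0.0747 to 0.0942). The median was -0.15 over the members and 0.00 over all genes, and the groups did not overlap for 6 members, against 58.7% of all genes. The count was 6 at an unadjusted p under 0.05 (55% of all genes) and 0 by the fold rule, which the study used here (18.3%).

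Both calls were close to the threshold. In 1 fit to all 12 libraries 6 members passed, and 7 with sex as a covariate, beside 51.2% and 52.4% of all genes. With replicate number as a block 0 members passed, beside 11% of all genes. Sod3 passed in 1 of 6 fits that left out a library, the one without Ctrl+I/R library 1 (-0.69, adjusted p = 0.0249), and had adjusted p from 0.0504 to 0.173 in the others. Prdx5 passed in 2 of 6, without Ctrl+I/R library 2 (0.33, adjusted p = 0.0485) or 4 (0.56, adjusted p = 0.0353), and had adjusted p from 0.0609 to 0.116 in the others. Ctrl+I/R library 2 stood apart from the other injured controls, with the lowest level in that group of Sod1, Sod2, Cat, Prdx2, Prdx3 and Prdx5, the highest of Prdx6, and the lowest sum of proximal tubule markers. Without it, 4 members passed, beside 48% of all genes: Sod2 was lower (-0.63, adjusted p = 0.00201), Prdx3 was lower (-0.47, adjusted p = 0.00864), Prdx6 was higher (0.50, adjusted p = 0.00572) and Prdx5 was higher. With library totals in place of TMM, which moved the median of all genes to -0.21, 5 members passed and all were lower, beside 46.2% of all genes, Prdx5 was at 0.28 (adjusted p = 0.162), and the differences of Sod2 and Prdx3 were -0.63 and -0.54.

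Whether the response to I/R differed between genotypes was tested as the knockout by I/R interaction on all 12 libraries. None of the 10 members passed in edgeR, at an unadjusted p under 0.05 or in DESeq2, beside 30.6% of all 16168 genes tested (14.3% higher, 16.4% lower, 42.2% at an unadjusted p under 0.05 and 14.5% by the fold rule). The smallest unadjusted p was that of Sod3 (log2 interaction -0.57 ± 0.26, unadjusted p = 0.0504, adjusted p = 0.119), followed by Sod2 (-0.41 ± 0.22, adjusted p = 0.166). The larger number of members called in knockout than in control kidneys is therefore not shown to be a difference between the genotypes. Without Ctrl+I/R library 2, Sod2 (-0.62, adjusted p = 0.00398) and Cat (-0.43, adjusted p = 0.0471) passed, beside 33.2% of all genes. With sex as a covariate, which leaves a single library to set the level of Ctrl, Sod3 was at -0.30 and Sod2 at -0.34.

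A further 23 genes of the same chemistry, covering the cytosolic thioredoxin system, glutathione peroxidases, glutaredoxins, sestrins and methionine sulfoxide reductases, were tested in the same fits. After I/R in knockout kidneys 9 of the 23 were higher and 5 lower, beside 32.9% and 32.7% of all genes. Sulfiredoxin (Srxn1), which repairs overoxidised peroxiredoxins, rose from 52.3, 57.7 and 55.7 CPM in PT-KO to 663, 721 and 843 in PT-KO+I/R (log2 fold change 3.74 ± 0.12, adjusted p = 2.66e-08). The cytosolic partners of Txn2 and Txnrd2 also rose: Txn1 by a log2 fold change of 1.12 ± 0.10 (adjusted p = 6.32e-06) and Txnrd1 by 1.89 ± 0.12 (adjusted p = 6.25e-07). Glutaredoxin (Glrx) rose by 2.85 ± 0.13 and glutathione reductase (Gsr), which regenerates glutathione, by 1.67 ± 0.14. Among those that fell were the copper chaperone of Sod1, Ccs (-1.42 ± 0.11, adjusted p = 2.22e-06), glutathione peroxidase 1, Gpx1 (-0.97 ± 0.10, adjusted p = 1.59e-05), and the mitochondrial methionine sulfoxide reductase Msrb2 (-0.92 ± 0.12, adjusted p = 8.77e-05).

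In control kidneys 4 of the 23 were higher after I/R (Txn1, Txnrd1, Srxn1 and Gsr) and 2 lower (Ccs and Sesn1), beside 11.4% and 7.97% of all genes, with log2 fold changes from -0.68 to 1.08. With sex as a covariate, which leaves a single library to set the level of Ctrl, Txn1 was at 0.59 and Srxn1 at 1.06. All 6 kept their direction in that fit. When Ctrl library 1, Ctrl library 2 or Ctrl+I/R library 1 was omitted, 0, 0 and 1 of the 23 passed, beside 2.39%, 2.56% and 5.28% of all genes. Between injured knockout and injured control kidneys 10 of the 23 were higher and 2 lower, beside 22.5% and 24.4% of all genes. The largest was Glrx, at 31.7, 23.7 and 30.4 CPM in injured controls and 235, 250 and 283 CPM in injured knockouts (log2 difference 3.16 ± 0.15, adjusted p = 5e-05), and Srxn1 followed at 2.61 ± 0.22 (adjusted p = 0.000228). The members' differences in that comparison, from -0.53 to 0.48, were small beside the largest of the 23, which were Glrx, Srxn1, Gsr (1.60 ± 0.16) and Txnrd1 (1.53 ± 0.18). Over the 23 the median was 0.26, and 11 of them were not called. For uninjured kidneys 0 of the 23 passed between genotypes in edgeR, with 5 at an unadjusted p under 0.05 and 1 in DESeq2, beside 16.8% and 2.93% of all genes.

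**Figure D3:**
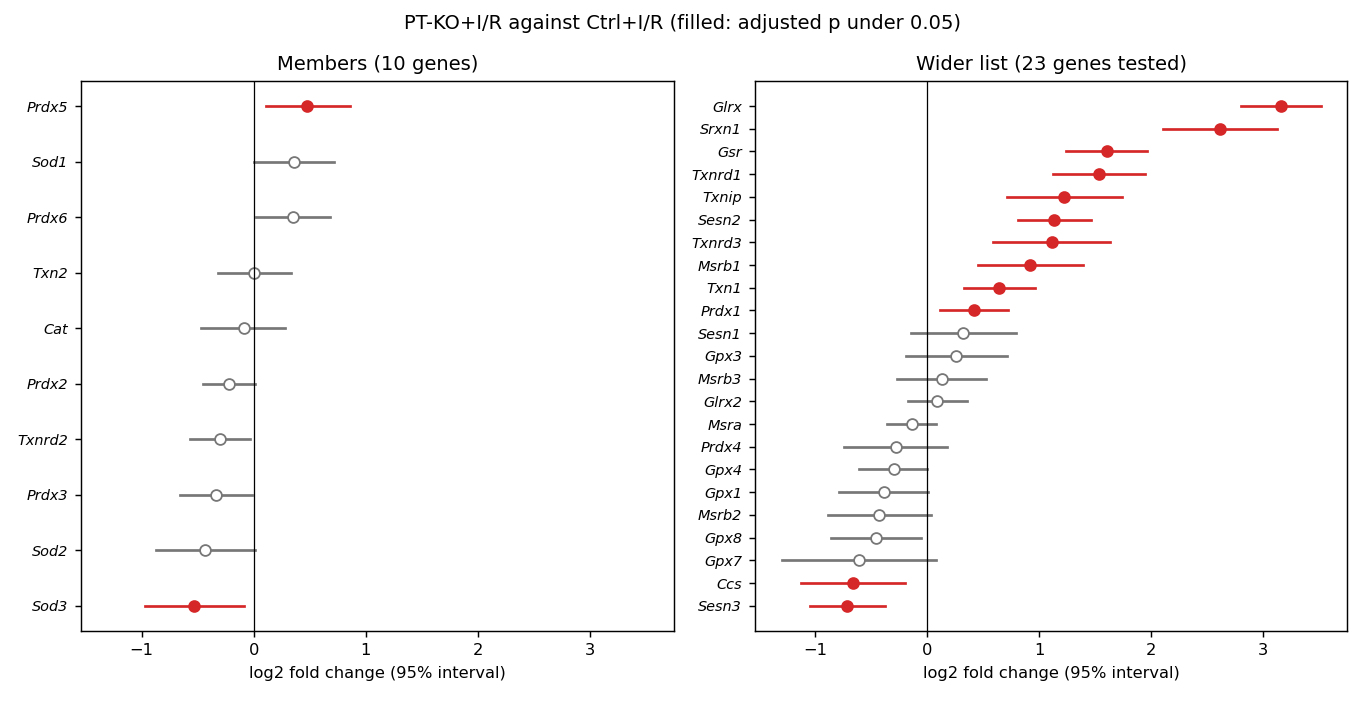
Log2 difference of PT-KO+I/R from injured controls (points) with its 95% interval (lines) for the 10 members (left) and the 23 further genes tested (right), ordered by size; filled red points passed an adjusted p of 0.05. The members lie between -0.53 and 0.48, whereas Glrx and Srxn1 reach 3.16 and 2.61.

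Ratios of 2 genes counted in the same library need no scaling between libraries, and 9 were taken after the counts had been seen. The log2 ratio of cytosolic Txnrd1 to mitochondrial Txnrd2 was 2.54 ± 0.10 in Ctrl, 2.86 ± 0.09 in PT-KO, 3.38 ± 0.33 for injured controls and 5.22 ± 0.26 for injured knockouts. For Txn1 over Txn2 it was 0.61 ± 0.07, 0.94 ± 0.04, 1.48 ± 0.22 and 2.14 ± 0.19 in the same order. Both ratios were lowest in Ctrl and highest in injured knockouts, and the groups did not overlap in any of the 4 comparisons. Among the members themselves, Prdx6 over Prdx3 went from -0.30 ± 0.13 in Ctrl through 0.04 ± 0.05 in PT-KO and 0.50 ± 0.51 in injured controls to 1.18 ± 0.03 in injured knockouts. Sod1 over Sod2 went from -0.17 ± 0.17 through 0.22 ± 0.18 and 0.36 ± 0.16 to 1.13 ± 0.23. Sod1 over its chaperone Ccs was 1.91 ± 0.21 in Ctrl and 3.29 ± 0.17 in PT-KO+I/R. Glrx over its mitochondrial relative Glrx2 differed in pattern, being -0.49 ± 0.35, -0.05 ± 0.06 and -0.09 ± 0.17 in the first 3 groups, which overlapped, and 2.98 ± 0.11 in PT-KO+I/R. Because the pairs were picked from genes already seen to differ, these ratios are a description, and 0.1 is the smallest exact permutation p that 3 against 3 libraries allow.

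**Figure D4:**
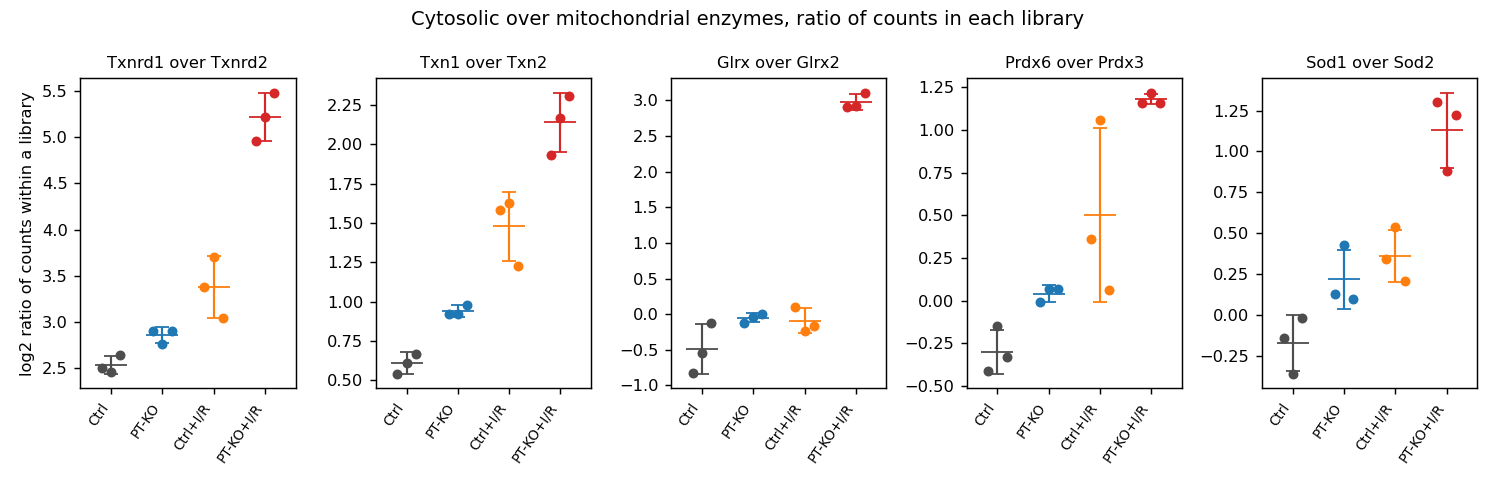
Log2 ratio of the counts of 2 genes within each library (vertical axes, a scale for each pair) in each of the 4 groups; points are libraries, horizontal marks the mean and bars the SD. PT-KO+I/R is the highest group in all 5 pairs, and for Glrx over Glrx2 the other 3 groups lie together.

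The falls of Sod2, Sod3, Cat and Prdx3 came beside lower proximal tubule markers, of which 10 of 10 were lower after I/R in knockout kidneys (median log2 fold change -2.34, beside 32.7% of all genes) and 4 of 10 in control kidneys (median -0.94, beside 7.97%). None of the 10 markers was at 0 in any library. Within libraries, the log2 ratio of Cat counts to those of Lrp2, the endocytic receptor of the proximal tubule, averaged -1.87 for uninjured knockouts. It was higher for injured knockouts, at -0.11, without overlap. The same ratio for Sod3 went from -3.62 to -1.74. Counts were not divided by gene length, so these ratios show shifts and not which gene was more abundant. Per kilobase of exon, Cat stood above Lrp2, at 448 against 256 CPM per kb without injury. With injury, the knockout means were 254 against 42.9 CPM per kb. The size of the shifts in these ratios depends on the marker chosen. The 10 markers had log2 fold changes from -4.03 to -0.81, and Lrp2, at -2.58, was near their median. The smaller falls were those of Slc27a2, by 0.81, Slc5a2, by 0.99, and Ggt1, by 1.05. Cat stood at -0.83 and Sod3 at -0.71, so every marker fell more than Sod3. Leukocyte markers did not move as 1 group. All 7 were higher after I/R in controls (11.4% of all genes), whereas in knockouts 3 were higher (Cd68, S100a8 and S100a9) and 3 lower (Ptprc, Adgre1 and Lyz2), beside 32.9% and 32.7% of all genes. In injured knockouts against injured controls 3 were higher and 4 lower, beside 22.5% and 24.4%. Their sum was 34.4 to 43.8 CPM in the uninjured libraries, 119 to 210 CPM in injured controls and 75.5 to 100 CPM in injured knockouts. Markers of the thick ascending limb summed to 4230 to 5750 CPM and those of the collecting duct to 184 to 295 CPM without injury, against 1370 to 3600 CPM and 52.5 to 209 CPM with it. Endothelial markers stood at 239 to 272 CPM in the other groups and 337 to 341 CPM in injured knockouts. The part of the markers in the results of the members was not tested. Between injured knockout and injured control kidneys 5 of the 10 markers were lower (median -0.92, beside 24.4% of all genes), while the members had a median of -0.15 and the 12 mitochondrial reference genes one of -0.01.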

How the data were processed

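The authors deposited 1 table of raw read counts per gene for 12 libraries. Reads came from total RNA (TRIzol, the labels also name an RNeasy kit) run on an Illumina HiSeq instrument, per the labels and the study's methods. The submitters' processing notes name HISAT2 2.0.4 and mm10. The count program, annotation and strand setting are not given in the sources used here. Symbols were matched through GENCODE M21 (mm10), for 55141 of 55487 identifiers. Of 25 further genes listed, Nnt matched 2 rows and was not used, and Gpx2 did not pass the filter.

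Counts were filtered with filterByExpr, scaled by TMM and tested with edgeR 4.0.16 (glmQLFit and glmQLFTest, R 4.3.3), with 6 libraries per comparison and all 12 for the interaction. The call threshold was an adjusted p of 0.05 (Benjamini-Hochberg, all genes tested). The standard error is the log2 fold change over the square root of F. Exact permutation tests used 3 against 3 libraries. Similar transcripts were searched with blastn 2.17.0 at 95% identity over 100 bases or more.

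Alternatives were DESeq2 1.42.0, total counts, a minimum of 10 counts per library, no filter, 1 fit to 12 libraries, replicate block, sex as a covariate, each library left out, and the 2 thresholds of the study (p under 0.05 alone, for I/R in controls, or p under 0.01 with a log2 change beyond 1 in either direction, for injured knockouts against injured controls). Within-library ratios were added after the counts had been seen. The method was tested on simulated counts. The members, lists and tests were chosen with earlier results of these data known. All 10 members and any gene of the wider list could be named. Intervals cover the spread between libraries. Some checks of shared reads are not reported here.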

Additional observations from a re-analysis of the deposited data

Results flagged for a closer look

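The knockout by I/R interaction, which tests whether I/R changed a gene differently in knockout and control kidneys, passed an adjusted p of 0.05 (edgeR, all 12 libraries) for 9 of the 23 further genes and for 0 of the 10 members, beside 30.6% of all genes. For 7 genes the change after I/R was higher in knockout than in control kidneys. The log2 interaction was 2.77 for Glrx (adjusted p = 7.55e-05), 2.68 for Srxn1 (adjusted p = 5.03e-05), 1.42 for Txnip (adjusted p = 0.0106) and 1.28 for Txnrd1 (adjusted p = 0.000962). It was 1.15 for Gsr (adjusted p = 0.00158), 0.92 for Sesn2 (adjusted p = 0.00506) and 0.88 for Txnrd3 (adjusted p = 0.0266). For Ccs, the copper chaperone of Sod1, it was -0.73 (adjusted p = 0.0337), and for Sesn3 it was -0.65 (adjusted p = 0.0442). With sex as a covariate, which leaves a single library to set the level of Ctrl, all 9 kept their direction. In that fit Txnip was at 0.87, Txnrd3 at 0.74 and Ccs at -0.71. With 1 library left out, the call was lost in 9 of 12 fits for Sesn3, 8 of 12 for Ccs and 4 of 12 for Txnrd3, and in 0 of 12 for the other 6 genes. Txnrd1, Glrx and Srxn1 were higher in every PT-KO+I/R library than in every library of the other groups.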

How the results depend on the processing

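Of 700 alternative values of the members' log2 fold changes, 603 kept their direction and side of the threshold, 21 lost and 30 gained a call and 46 changed sign. Of the 143 that belong to the 11 called results, 122 kept the call, 21 lost it and 0 changed sign. For the called genes of the wider list, 498 of 578 kept the call, 80 lost it and 0 changed sign. The cause of these shifts was not tested, and 3 libraries per group limit the precision.

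After I/R in control kidneys (1 member called) the count of members was 3 with DESeq2 (21.8% of all genes), 2 with total counts (20%), 4 with 1 fit to 12 libraries (30.5%), 3 at an unadjusted p under 0.05, 0 by the fold rule and 0 to 2 with a library left out (2.39% to 25% of all genes). The count in the wider list (6) was 10, 12 and 1 with DESeq2, the unadjusted p and the fold rule, and 0 to 7 with a library left out. Between uninjured genotypes (0 members, 0 of the wider list) the counts were 2 and 5 at an unadjusted p, 1 of the wider list with DESeq2, and 0 to 2 and 0 to 5 with a library left out, the highest of each coming without Ctrl library 3, where 12.4% of all genes passed. In knockout kidneys the fold rule left 1 member of 8 and 6 of 14 in the wider list. Between injured genotypes (2 members, 12 of the wider list) the members were 5 with total counts (46.2% of all genes), 6 with 1 fit to 12 libraries (51.2%), 7 with the sex covariate (52.4%), 6 at an unadjusted p, 0 by the fold rule and 0 to 4 with a library left out (31% to 48%), and the fold rule left 7 of the wider list. For the interaction, 0 to 2 members were called with a library left out (21.7% to 33.2% of all genes), and the fold rule left 5 of 9 in the wider list.

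Same-numbered libraries did not deviate together as a set (median correlation -0.02 over 12 pairs, from -0.175 to 0.165, 1 of them over 0.1). With 3 libraries per group this is a weak check, and it does not show that the numbers mark no pairing or batch. With replicate number as a block the members called were 2 after I/R in controls (23.2% of all genes), 1 between uninjured genotypes (Sod1, 9.01%), 7 after I/R in knockouts (55.7%, without Sod1) and 0 between injured genotypes (11%, against 46.9% without the block), and 4 of the wider list between uninjured genotypes. Ctrl library 3, whose column number matches no control title, had a block of its own.

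Changes of sign arose in members near 0. After I/R in controls, Sod3 ranged from -0.34 to 0.04 and Prdx5 from -0.20 to 0.07 with a library left out, and with total counts Prdx5 and Txn2 were each at 0.03. Between uninjured genotypes, Sod2 was at 0 with DESeq2, 0.03 with the block and -0.06 to 0.03 with a library left out. Sod3 was at -0.08 with total counts, -0.23 with the sex covariate and -0.06 to 0.20, Txn2 at 0.05 with the block and -0.10 to 0.03, and Txnrd2 at 0.07 with the sex covariate. After I/R in knockouts, Prdx5 was at -0.01 with at least 10 counts, -0.03 with the block and -0.06 to 0.17 with a library left out, and Txn2 at -0.22 to 0.04. Between injured genotypes, Cat ranged from -0.25 to 0, and Txn2 was at -0.20 with total counts, -0.01 without a filter, -0.02 with at least 10 counts and -0.15 to 0.10 with a library left out. In the interaction, Sod1 was at 0.21 with the sex covariate and -0.15 to 0.11, Prdx5 at -0.02 with the block and -0.02 to 0.28, and Txn2 at -0.04 with total counts and -0.12 to 0.13 with a library left out. With total counts the median of all genes was 0.11 after I/R in controls, -0.14 between uninjured genotypes and -0.21 between injured ones, against -0.01, -0.01 and 0 with TMM. The count of all genes called after I/R in controls ran from 379 to 4061 with a library left out.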
